A study of Mus musculus with 7 samples.

Results

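The intestinal epithelium of mice that had lost Mob1a and Mob1b was compared 10 days and 7 days after tamoxifen, using the 1 array titled as 10 days and the 2 arrays titled as 7 days, which are 3 of the 7 arrays of the series. Of 55681 probes, 29193 were well above background (the scanner software's own flag) on the day 10 array or on both day 7 arrays and were kept. Taking the brightest probe of each gene gave 25041 features, of which 13910 carried a gene symbol and 11131 did not. Because a single array stands on the day 10 side, the description rests first on the day 7 range. A feature was counted as beyond it when the day 10 array lay at least 1 log2 unit past the nearer of the 2 day 7 arrays.

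Both groups came from 8-week-old male mice that carry Villin-creERT2 and are Mob1a f/f and Mob1b f/f, that is, with both alleles of each gene floxed, on a C57BL/6J background, backcrossed for more than 6 generations and kept specific-pathogen-free. They received 80 mg/kg tamoxifen per day for 2 days by intraperitoneal injection, which activates a Cre recombinase that the Villin promoter drives in the epithelium of villi and crypts. The control and day 4 arrays, 2 of each, are quoted beside them as background: the day 4 mice had the same genotype, and the controls carried the floxed alleles without Cre and, per their labels, were sampled 7 days after tamoxifen. Epithelial cells of the proximal intestine were released with 2 mM EDTA, and total RNA was labelled with Cy3 for 1-colour Agilent arrays. The design text speaks of 2 different male mice at each of the earlier times and does not mention day 10. The p-values below take the spread of the single day 10 array to be that of the other groups.

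MOB1A and MOB1B are adaptor proteins of the Hippo pathway: they bind and help activate the LATS kinases, which phosphorylate the coactivators YAP and TAZ and keep them out of the nucleus. When YAP and TAZ are nuclear they bind TEAD transcription factors and raise a set of target genes. In the intestine, YAP is known for its part in the repair of injured crypts, where epithelial cells transiently take up genes of the fetal gut.

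All 7 arrays lay on 1 slide with 1 scan, with day 7 and day 10 in the same row of the slide. Levels are log2 of the scanner's processed signal minus that array's 75th percentile over non-control spots, so 0 is a fairly bright probe and values below about -4 approach background. That percentile was a signal of 545 on the day 10 array and 320 to 395 on the others, and 51.3% of probes were well above background there against 45.2% to 49.8%. No spot was saturated. Over the 25041 features, the 2 day 7 arrays correlated with each other at r = 0.980, and the day 10 array correlated with them at r = 0.900 and 0.889. The 2 day 7 arrays differed by 1 log2 unit or more at 9.08% of features, and the day 10 array differed from them by as much at 33.9% and 33.8%.

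The extent of the change was wide. Of the 25041 features, 3810 were higher than the day 7 range (15.2%) and 2705 were lower (10.8%). In limma's moderated test, with 1 mean per group over all 7 arrays and Benjamini-Hochberg adjustment over all features, 3402 features rose (13.6%) and 2721 fell (10.9%) at an adjusted p under 0.05. "Rose" and "fell" are used below for these calls alone, and values after ± are limma's standard errors of the day 10 minus day 7 difference. Adjusted p-values given as a range over the alternatives cover the other settings of the processing, for the calls that some of them end. Leaving out either control gave the same fit as leaving out the other, and likewise for the day 4 arrays. Counts of alternatives include these repeated fits. The selection of probes favours higher values, since 2978 features were kept through the day 10 array alone and 569 through the day 7 arrays alone. Of the 2978, 2038 were above the day 7 range (68.4%). For features kept through 1 side alone, the value that passed the filter is also the value tested, so their p-values carry that selection. Beside a fold given as a bound, the p-value belongs to limma's difference of the measured levels, not to the bound. Among the 20004 features well above background on all 3 arrays, 1509 were higher than the day 7 range (7.54%) and 2196 were lower (11%), with a median difference of -0.09 against 0.03 over all 25041. The share of higher among all features beyond the range was thus 58.5% over all features and 40.7% over those on all 3 arrays, and it was 44.3% with the normexp background correction. Nearest to the threshold, the last features counted as higher and lower lay 1.00048 and 1.00003 log2 units beyond the range, and the first not counted lay 0.999935 and 0.999548 beyond it.

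**Figure D1:**
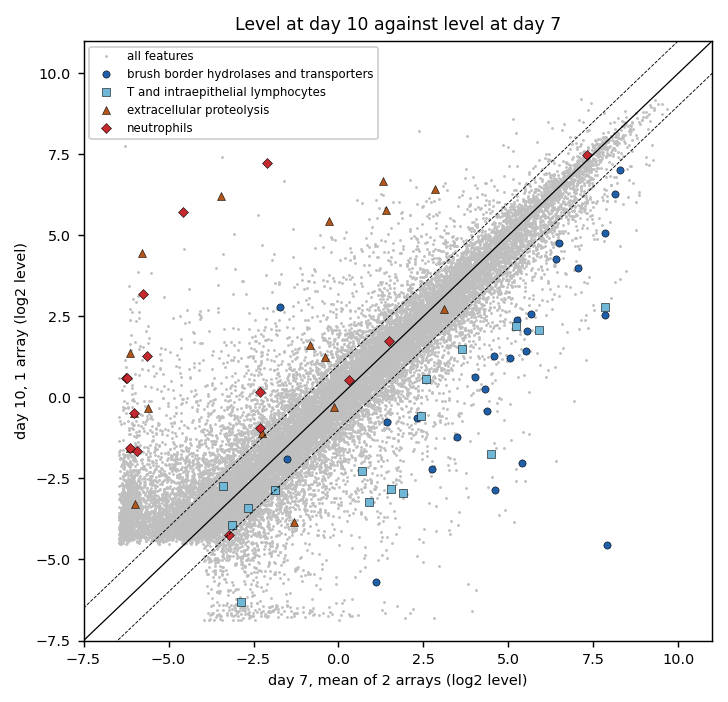
Level on the day 10 array (y axis, log2) against the mean of the 2 day 7 arrays (x axis, log2); each grey point is 1 of 25041 features, the solid line marks equal levels and the dashed lines 1 log2 unit to either side. Most brush border genes (blue circles) and most lymphocyte markers (light blue squares) lie below the lines, and most neutrophil markers (red diamonds) and extracellular proteolysis genes (brown triangles) lie above them.

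The label was checked against epithelial genes, chosen for this check after their values were known. Epcam, the pan-epithelial adhesion molecule, stood at 6.00 and 5.49 at day 7 and 5.37 at day 10, a difference of -0.38 ± 0.31 (adjusted p = 0.443). Cdh1, which encodes E-cadherin, stood at 5.29 and 5.31 and 5.85 (adjusted p = 0.168), and Krt8, a keratin of simple epithelia, at 7.67 and 7.46 and 7.90 (adjusted p = 0.424). These 3 genes were bright on every array and none passed the test. Vil1, which encodes villin of the microvillus core, fell from 8.08 and 8.23 to 6.79 (adjusted p = 0.0121, 0.00837 to 0.0597 over the alternatives, the highest from the day 7 and day 10 arrays alone).

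The targeted genes did not separate day 10 from day 7 in the direction of a further loss. Mob1b, read by its brighter probe, stood at -0.92 and -1.14 in the controls, -2.47 and -2.42 at day 4, -2.73 and -2.48 at day 7 and -2.65 at day 10, so that all 5 knockout arrays lay below both controls and the day 10 array lay between the 2 day 7 arrays (adjusted p = 0.926). The dim Mob1a probe stood at -3.89 and -3.71 in the controls, -4.26 and -3.85 at day 4, -3.67 and -3.41 at day 7 and -2.18 at day 10; it was not well above background on 1 control and 1 day 7 array, and it rose by 1.36 ± 0.30 (adjusted p = 0.0209, 0.0151 to 0.321 over the alternatives, above 0.05 in 4 of 16, normexp and the fit without day 7 replicate 1 among them). Whether either probe lies within the floxed part of its gene is not given in the sources used here, so the Mob1a value checks nothing about the deletion.

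The digestive surface of the enterocyte was the list with the most members beyond the day 7 range. All 26 brush border hydrolases and transporters had a value, 24 of them on all 3 arrays. Of the 26, 24 were below the day 7 range, 24 fell and 1 rose, with a median difference of -3.34. Lct, lactase, stood at 8.06 and 8.58 in the controls, 8.20 and 8.66 at day 4, 7.50 and 8.31 at day 7 and -4.54 at day 10, where it was not well above background. It was bright on the 6 earlier arrays and the day 10 level is a bound, giving a fall of at least 5539-fold (adjusted p = 0.00013). Mme, the peptidase neprilysin, stood at 5.13 and 5.03 in the controls, 4.45 and 4.94 at day 4, 4.63 and 4.60 at day 7 and -2.84 at day 10, a 176-fold fall with both of its probes in the same direction (-7.46 ± 0.30, adjusted p = 0.000148). Treh, trehalase, stood at 6.91 and 7.14 in the controls, 6.40 and 7.00 at day 4, 4.97 and 5.81 at day 7 and -2.03 at day 10, a 171-fold fall (adjusted p = 0.000356). Treh had already been lower at day 7 than in the controls, whereas Lct at day 7 overlapped the controls and Mme lay within 1 log2 unit of them. Sis, sucrase-isomaltase, stood at 8.36 and 8.41 in the controls, 8.19 and 8.26 at day 4, 7.94 and 7.75 at day 7 and 2.55 at day 10 and fell by 5.29 log2 units (adjusted p = 0.000217). In Slc34a2, the intestinal phosphate transporter, the order of groups was another: it stood at -4.35 and -5.34 in the controls, -4.87 and -5.93 at day 4, 1.64 and 0.56 at day 7 and -5.69 at day 10, above background in both day 7 arrays and in 1 of the 4 earlier ones, and was lower at day 10 by at least 49.6-fold (adjusted p = 0.00111). The 1 member that rose was Slc10a2, the bile acid transporter best known from the ileum, at -2.44 and -2.33 in the controls, -2.54 and -1.78 at day 4, -1.11 and -2.33 at day 7 and 2.78 at day 10 (4.51 ± 0.56, adjusted p = 0.00235). The day 10 array was above all 6 others there by more than 3 log2 units.

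The 200 bases before the start site of Lct and Sis, which encode the disaccharidases that digest milk sugar and sucrose, are shown because they moved together. They come from RefSeq on build GRCm38.p6, at chr1:128328319-128328518, minus strand, and chr3:72967864-72968063, minus strand, and read 5′ to 3′ on the gene's strand. Capitals mark TTTATG or its reverse complement CATAAA, letters that caudal homeodomain factors such as Cdx2 are known to recognise. Of the 260 genes with named values 196 had an entry in that table. Such a match stood in 8.51% of 32851 windows of the same length, and it is a description, not a site.
Lct: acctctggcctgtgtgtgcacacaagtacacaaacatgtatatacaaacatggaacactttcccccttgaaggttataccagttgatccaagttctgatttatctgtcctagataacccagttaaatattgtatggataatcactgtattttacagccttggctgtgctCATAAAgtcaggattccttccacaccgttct
Sis: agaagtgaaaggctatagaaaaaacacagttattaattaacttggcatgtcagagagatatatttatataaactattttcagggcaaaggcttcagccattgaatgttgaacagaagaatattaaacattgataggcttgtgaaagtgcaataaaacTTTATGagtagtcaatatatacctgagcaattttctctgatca

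The other programmes of the absorptive cell followed with smaller shares. Of 21 lipid absorption genes with a value, all on all 3 arrays, 14 fell and 2 rose, at a median of -1.55. Cd36, a fatty acid receptor, went from 1.02 and 2.04 at day 7 to -3.25 at day 10, after 1.84 and 2.04 in the controls (-4.77 ± 0.47, adjusted p = 0.00111). Apoa4, a chylomicron apolipoprotein, went from 7.62 and 8.01 to 4.81 (adjusted p = 0.00275), and Mogat2, which rebuilds triglyceride from absorbed fat, from 7.59 and 7.59 to 4.87 (adjusted p = 0.0136). In each of the 3 the day 10 array was below all 6 others. The members that rose were Plin2, the coat protein of lipid droplets, from 3.65 and 3.02 to 4.95 (adjusted p = 0.0244), and Abca1, a cholesterol exporter, from -3.69 and -3.22 to -1.60 (adjusted p = 0.00824). Over the alternatives the adjusted p was 0.00984 to 0.0638 for Plin2, above 0.05 in 4 of 17 alternatives, that without day 7 replicate 2 among them, and 0.00595 to 0.147 for Abca1, above 0.05 with normexp. Abca1 remained below its control levels of 1.51 and 1.40.

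Among 20 genes of fatty acid oxidation and ketogenesis, 10 fell and 3 rose (median -1.22). Ppara, the nuclear receptor that drives this programme, went from 2.43 and 2.70 at day 7 to -1.05 (-3.62 ± 0.37, adjusted p = 0.00127), with its 3 probes between -4.08 and -1.49. Its coactivator Ppargc1a went from 3.73 and 4.02 to 1.24 (adjusted p = 0.00386), and the oxidation enzymes Hadh from 5.46 and 5.96 to 2.61 and Ehhadh from 2.28 and 2.91 to -0.06 (adjusted p = 0.00169 and 0.00338). Among the members that rose was Acadl, the long-chain acyl-CoA dehydrogenase, from 3.42 and 2.97 to 4.79 (adjusted p = 0.0121). The respiratory chain moved less: of 23 subunits, 5 were below the day 7 range, 12 fell and none rose (0 at an unadjusted p under 0.05), with a median of -0.99. Atp5c1, a subunit of ATP synthase, went from 7.12 and 7.06 to 5.53 (adjusted p = 0.00742). Cholesterol synthesis had 4 members that fell and none that rose (1 at an unadjusted p under 0.05) among 22 (median -0.48), among them Dhcr7, the last enzyme of the pathway, from 2.10 and 1.54 to -1.02 (adjusted p = 0.00183).

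Xenobiotic metabolism held 18 members that fell and 1 that rose among 28 with a value (median -2.24, and -2.07 over the 24 on all 3 arrays). Cyp3a11, the main drug-oxidising cytochrome of mouse gut, stood at 6.85 and 8.11 in the controls, 7.63 and 8.04 at day 4, 4.19 and 6.16 at day 7 and -3.86 at day 10. Cyp2b10, another such cytochrome, stood at 8.07 and 7.96 in the controls, 7.24 and 7.35 at day 4, 5.02 and 5.45 at day 7 and -2.21 at day 10, and the carboxylesterase Ces2a at 8.67 and 8.77 in the controls, 7.66 and 8.43 at day 4, 3.72 and 5.28 at day 7 and -2.45 at day 10. For all 3 the day 7 arrays were below every control and day 4 array and the day 10 array was lower again, by 524-fold, 174-fold and 124-fold against the day 7 mean (adjusted p = 0.000998, 0.00014 and 0.000952). Cyp3a16 and Cyp3a59 were above background on both day 7 arrays and not at day 10, at least 163-fold and 130-fold lower. These cytochromes and esterases have near-identical relatives, and probes of 1 member can bind another's transcripts. Gsta4, a glutathione transferase for lipid aldehydes, rose from 2.22 and 2.42 to 5.22 (adjusted p = 0.00207), above its control levels of 3.79 and 4.11.

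The transcription factors that specify intestinal cells were less uniform. Of 16 with a value, 5 fell and none rose (0 at an unadjusted p under 0.05). Their median difference was -0.60. Vdr, the vitamin D receptor, stood at 4.92 and 5.02 in the controls, 4.39 and 4.90 at day 4, 3.94 and 4.28 at day 7 and -1.11 at day 10 and fell 37.3-fold (adjusted p = 0.000364). Maf, a large Maf factor of the villus, went from 4.39 and 4.57 to 0.72 (adjusted p = 0.000492). Hnf4g, one of a pair of HNF4 receptors that keep enterocyte genes on, went from 3.49 and 3.60 to 0.55 (adjusted p = 0.00074), while its partner Hnf4a stood at 7.31 and 7.72 and 7.04 (adjusted p = 0.292). Cdx1, a caudal homeobox factor of the intestine, fell from 4.83 and 4.85 to 2.97 (adjusted p = 0.00304), and the related Cdx2 stood at 5.0 and 4.75 and 4.30 (adjusted p = 0.174). The difference between Hnf4g and Hnf4a, or between Cdx1 and Cdx2, was not itself tested.

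**Figure D2:**
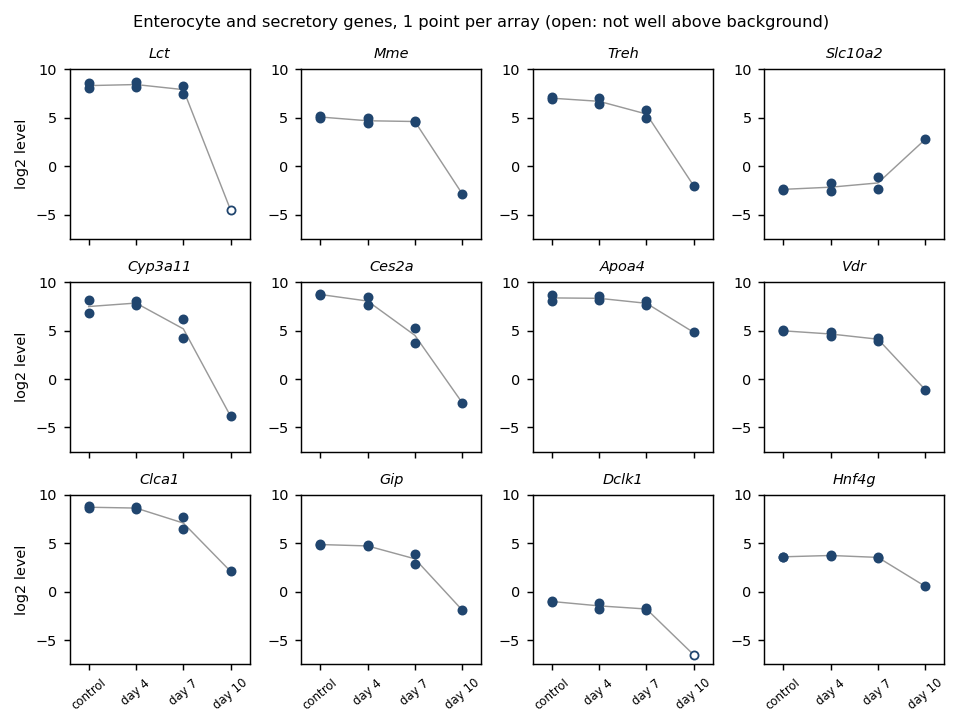
Log2 level (y axis) of 12 absorptive, regulatory and secretory genes in each of the 7 arrays by group (x axis); filled points are well above background, open points are not, and the grey line joins group means. The day 10 point is the lowest in every panel except Slc10a2, where it is the highest.

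Many genes of the secretory lineages were lower at day 10 too. All 18 goblet cell genes were on all 3 arrays, and 8 fell and 2 rose (median -0.87). Clca1, a secreted mucus protein, stood at 8.81 and 8.64 in the controls, 8.54 and 8.74 at day 4, 6.49 and 7.69 at day 7 and 2.10 at day 10, a 31.9-fold fall from day 7 (adjusted p = 0.00108). Zg16, a mucus lectin, went from 7.95 and 8.63 to 4.68 (adjusted p = 0.00129), and Guca2a, which encodes the hormone guanylin, from 7.00 and 6.62 to 3.39 (adjusted p = 0.00166). Day 7 had itself been below the controls for Clca1 and Zg16, and not for Guca2a, whose controls were 6.28 and 6.16. The members that rose were Retnlb, a goblet cell defence protein, from -3.03 and -1.92 to 1.5 (adjusted p = 0.0104), and Fxyd3, a regulator of the sodium pump, from -0.30 and -0.30 to 2.21 (adjusted p = 0.00132). Muc2, the main gel-forming mucin, stood at 2.39 and 3.13 at day 7 and 1.46 at day 10 and did not pass the test (adjusted p = 0.061), against 5.82 and 5.59 in the controls.

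Of 11 Paneth cell genes with a value, 7 fell and 2 rose (median -2.34). Ang4, a microbicidal ribonuclease that goblet cells make as well, stood at 4.5 and 4.52 and 0.43 (adjusted p = 0.0016). Defa21, an alpha-defensin with close relatives in its family, stepped down at each time: 6.39 and 6.27 in the controls, 5.02 and 4.98 at day 4, 3.11 and 3.20 at day 7 and 0.38 at day 10 (-2.78 ± 0.25, adjusted p = 0.000848). The members that rose are genes that other cells use too, Nupr1, a stress-induced chromatin protein, from 0.98 and 0.69 to 4.69 (adjusted p = 0.000561), and the coat protein gene Copz2, which was below background on both day 7 arrays (adjusted p = 0.00789, 0.00442 to 0.354 over the alternatives, the highest with normexp).

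Enteroendocrine genes had the second highest share below the range of the lists with 10 or more values. Of 26 on the array 20 had a value, 17 were below the day 7 range, 17 fell and 1 rose (median -2.89). Sst, somatostatin, stood at 4.39 and 3.88 in the controls, 3.87 and 4.05 at day 4, 3.10 and 3.83 at day 7 and -2.24 at day 10, a 52-fold fall (adjusted p = 0.000463). Gip, the glucose-dependent insulinotropic hormone, stood at 4.96 and 4.79 in the controls, 4.68 and 4.78 at day 4, 2.91 and 3.89 at day 7 and -1.89 at day 10, a 39.1-fold fall (adjusted p = 0.000646). For both, the day 7 arrays were below the 4 earlier ones and the day 10 array was lowest by more than 4 log2 units. Scg2, a granule protein, was above background on all 6 earlier arrays and not at day 10, at least 32.1-fold lower (adjusted p = 0.000356), and Chga, the general marker chromogranin A, went from 4.30 and 3.96 to 0.21 (adjusted p = 0.000615).

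For tuft cells, 10 of 16 genes had a value, 4 fell and 1 rose. Of those that fell, Dclk1, Rgs13 and Spib were kept through the day 7 arrays alone, which favours a fall. Over the 7 on all 3 arrays 1 fell and 1 rose, at a median of -0.54. Dclk1, the standard tuft cell marker, stood at -1.91 and -1.65 at day 7 and was not well above background at day 10, at least 6.74-fold lower (adjusted p = 0.00046), and Rgs13, a regulator of G protein signalling, was at least 9.31-fold lower (adjusted p = 0.00193). Trpm5, the cation channel of taste and tuft cells, fell from -1.76 and -1.12 to -3.61 (adjusted p = 0.0088). Alox5ap, needed for leukotriene synthesis in tuft cells and in leukocytes, rose from -0.64 and 0.35 to 2.08 (adjusted p = 0.0151). In a bulk sample such as this, fewer cells of a type and less RNA per cell cannot be told apart, for these and all other lists.

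**Figure D3:**
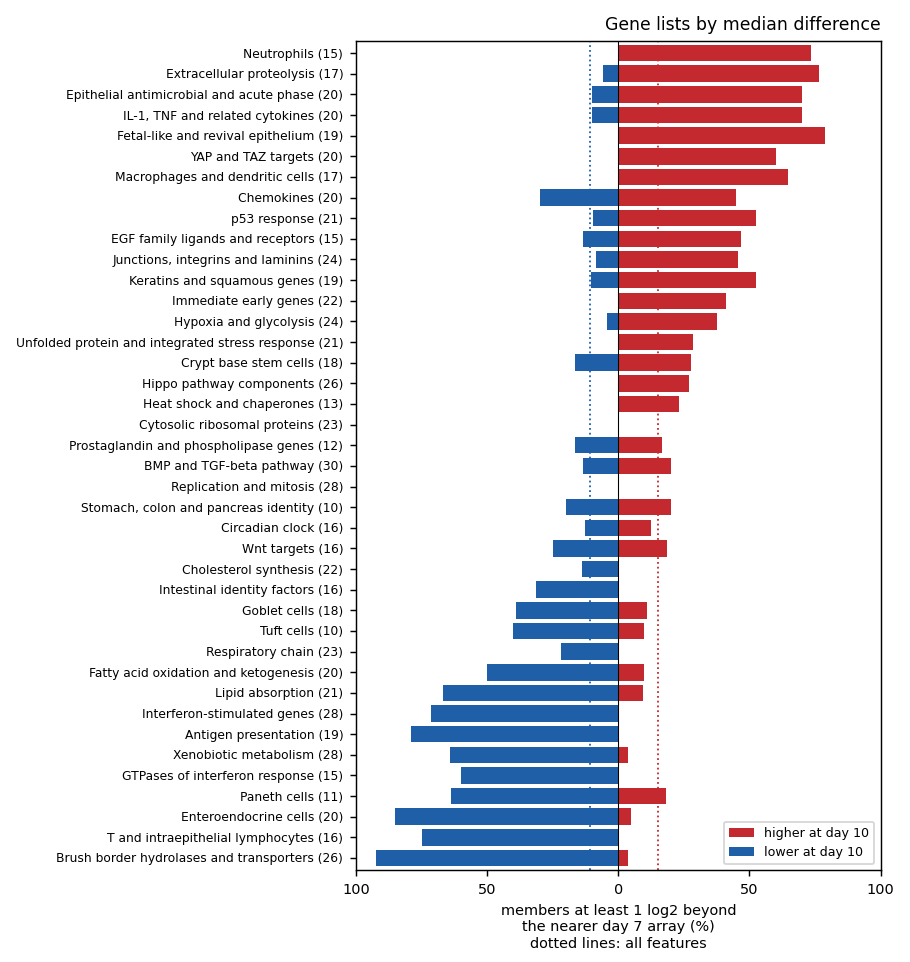
Share of each list's members (x axis, % of the members with a value, whose number is in brackets) that lay at least 1 log2 unit above (red, right) or below (blue, left) the nearer day 7 array, for the lists with 10 or more such members in order of median difference; dotted lines mark the shares over all 25041 features (15.2% and 10.8%). Brush border, lymphocyte and enteroendocrine lists stand at the lower end and neutrophil, proteolysis and acute phase lists at the upper end, while ribosomal and replication genes have no bar.

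Proliferation and ribosomal genes stayed within 1 log2 unit of the day 7 range. None of 28 replication and mitosis genes, all on all 3 arrays, was beyond that distance. By limma 1 fell and none rose (0 at an unadjusted p under 0.05) (median -0.16, and 0.02 when scaled to probes detected on all 7 arrays). Birc5, which encodes survivin, stood at 4.97 and 4.84 at day 7 and 4.44 at day 10 (adjusted p = 0.434), and Cdc20, the mitotic activator of the anaphase-promoting complex, at 5.22 and 4.25 and 4.97 (adjusted p = 0.812). None of 23 cytosolic ribosomal protein genes passed either criterion, with 0 higher and 0 lower at an unadjusted p under 0.05 in limma (median 0.08, and -0.10 when scaled to the median of all probes).

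Wnt and stem cell genes split. Of 18 crypt base genes with a value, 5 rose and 3 fell (median 0.30), and of 16 Wnt targets 3 rose and 3 fell (median -0.37, and 0.07 over the 14 on all 3 arrays). Over all features 13.6% rose and 10.9% fell. Lgr5 and Tnfrsf19, members of both lists, were kept through the day 7 arrays alone, which favours a fall. Among members on all 3 arrays, 5 rose and 1 fell of 16 crypt base genes, and 3 rose and 1 fell of 14 Wnt targets. Lgr5, the receptor that marks cycling crypt base stem cells and is itself a Wnt target, stood at -0.36 and -0.45 in the controls, -0.04 and -0.42 at day 4, -2.26 and -1.64 at day 7 and -6.59 at day 10. It was above background on all 6 earlier arrays and not at day 10, at least 5.97-fold lower than at day 7 (adjusted p = 0.000561). Smoc2, another crypt base marker, stood at 3.05 and 4.01 in the controls, 4.47 and 3.85 at day 4, 3.32 and 3.14 at day 7 and -0.79 at day 10, a 16.2-fold fall (adjusted p = 0.00194). Tnfrsf19 was at least 3.78-fold lower (adjusted p = 0.00643), and Sp5, a direct Wnt target, fell from 1.61 and 1.88 to -0.19 (adjusted p = 0.016). On the other side, Prom1, which encodes CD133, rose from 3.07 and 2.83 to 5.72 (adjusted p = 0.00151), and Aqp4, a water channel, from 0.17 and -0.62 to 4.48 (4.70 ± 0.42, adjusted p = 0.000835). Sox9, a crypt transcription factor, rose from -1.45 and -1.31 to 0.37 (adjusted p = 0.00789), and Myc from 0.86 and 0.90 to 3.21 (adjusted p = 0.0201), both above every control array. Over the alternatives the adjusted p of Sp5 was 0.00674 to 0.0567, above 0.05 without day 7 replicate 2, and that of Myc 0.0113 to 0.0644, above 0.05 in 3 of 17 alternatives, those without either day 7 replicate among them.

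Many targets of YAP and TAZ were higher at day 10 than at day 7, while most Hippo pathway components stayed within 1 log2 unit of the day 7 range. Of 26 pathway components with a value, 8 rose and none fell (2 at an unadjusted p under 0.05), with a median of 0.22. The 8 include Mob1a. Of the 26, 10 lay below the day 7 mean. Over the 23 on all 3 arrays 4 were above the day 7 range, at a median of 0.08. Yap1, Lats1, Sav1, Stk3, Stk4 and Nf2 stayed within 1 log2 unit of that range. Wtip, a LIM protein that restrains LATS, stood at -0.57 and -0.25 in the controls, 1.81 and 1.25 at day 4, 2.68 and 2.36 at day 7 and 4.35 at day 10 (1.83 ± 0.35, adjusted p = 0.0117). Tead4, among the TEAD factors that YAP binds, stood at -3.93 and -5.44 in the controls, -3.83 and -4.17 at day 4, -1.59 and -2.34 at day 7 and 0.40 at day 10 (2.37 ± 0.64, adjusted p = 0.0409). For both, the day 10 array was the highest of the 7 and the day 7 arrays lay above every control. Amotl1, an angiomotin that binds YAP, was below background on the 6 earlier arrays and at -0.94 at day 10, at least 11.3-fold higher (adjusted p = 0.00213). Tead1 rose from 2.27 and 2.13 to 3.49 (adjusted p = 0.0325). Over the alternatives the adjusted p was 0.00657 to 0.127 for Tead4 and 0.0176 to 0.0874 for Tead1, above 0.05 in 6 of 17 and 9 of 17 alternatives. Among these were, for both, those without either day 7 replicate, for Tead4 those without either day 4 replicate and for Tead1 those without either control.

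Of 22 YAP and TAZ targets on the array 20 had a value, 12 were above the day 7 range, 11 rose and none fell (0 at an unadjusted p under 0.05). The median difference was 2.02. Over the 14 on all 3 arrays 6 were above the range, at a median of 1.09. Ccn1 and Ccn2, secreted matricellular proteins and the most used readouts of YAP activity, stood at -2.59 and -2.08 in the controls, -0.41 and -0.23 at day 4, 1.92 and 1.46 at day 7 and 3.72 at day 10 for Ccn1, and at -6.46 and -6.69 in the controls, -1.83 and -4.79 at day 4, 1.70 and 1.36 at day 7 and 5.23 at day 10 for Ccn2. They rose by 2.03 ± 0.34 and 3.70 ± 1.06 (adjusted p = 0.00765 and 0.0496), and the groups followed the order of days without overlap for Ccn1. The call for Ccn2 did not hold in 9 of 17 alternatives, among them those without either control or either day 7 replicate, at 0.00141 to 0.137 over the alternatives, though its day 10 array was the highest of the 7. F3, tissue factor, stood at -0.65 and -0.40 in the controls, 0.41 and 1.11 at day 4, 1.46 and 1.16 at day 7 and 6.66 at day 10, and Msln, mesothelin, at -3.86 and -5.64 in the controls, -6.36 and -6.62 at day 4, 2.24 and 2.50 at day 7 and 8.23 at day 10. F3 rose 40.6-fold and Msln 58.2-fold over the day 7 mean (adjusted p = 0.000462 and 0.00184). F3 at day 7 was close to its day 4 levels, while Msln was already higher at day 7 than in every control and day 4 array. Ankrd1, a muscle-type ankyrin repeat protein, was above background on the day 10 array (1.49) and on 1 day 7 array (-3.91 and -6.28) and rose by 6.58 ± 0.86 (adjusted p = 0.00292). Tgfb2, a transforming growth factor, was below background on the 6 earlier arrays and at least 27-fold higher at day 10 (adjusted p = 0.00211).

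The 200 bases before the start of Ccn1 and Ankrd1 are shown because these targets moved together and TEAD factors are known to recognise GGAATG; capitals mark it or its reverse complement CATTCC. They are RefSeq's on GRCm38.p6, at chr3:145649986-145650185, minus strand, and chr19:36119845-36120044, minus strand, 5′ to 3′ on the gene's strand. Of all 32851 windows of this length 10.1% held a match.
Ccn1: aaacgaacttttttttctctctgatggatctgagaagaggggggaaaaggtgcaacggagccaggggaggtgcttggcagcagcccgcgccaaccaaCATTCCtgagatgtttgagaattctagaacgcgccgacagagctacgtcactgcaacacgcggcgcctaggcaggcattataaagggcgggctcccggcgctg
Ankrd1: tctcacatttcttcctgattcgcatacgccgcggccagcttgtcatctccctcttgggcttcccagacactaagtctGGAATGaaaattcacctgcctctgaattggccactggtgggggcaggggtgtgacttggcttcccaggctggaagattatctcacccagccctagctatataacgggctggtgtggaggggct

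**Figure D4:**
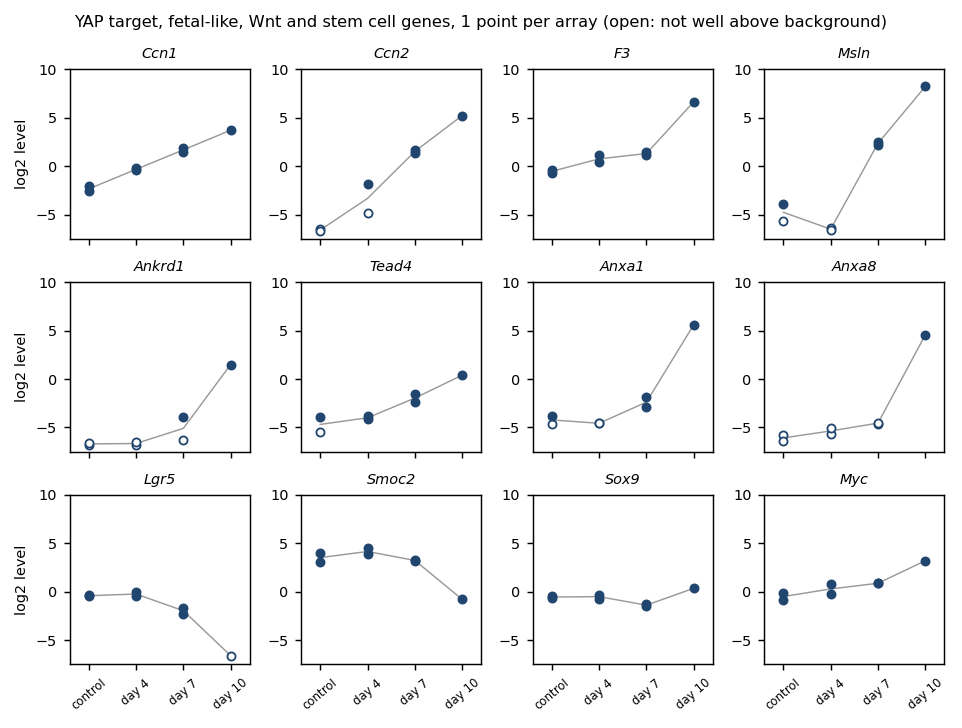
Log2 level (y axis) of 12 YAP target, fetal-like, Wnt and stem cell genes in each of the 7 arrays by group (x axis); filled points are well above background, open points are not, and the grey line joins group means. The day 10 point is the highest in the 8 panels of the upper rows and in Sox9 and Myc, and the lowest in Lgr5 and Smoc2.

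The fetal-like genes that mark repairing epithelium were higher again. Of 19 with a value, 15 were above the day 7 range, 14 rose and none fell (0 at an unadjusted p under 0.05). The median was 2.09, and 2.04 over the 15 on all 3 arrays. Anxa1, an annexin of wound repair, stood at -4.63 and -3.82 in the controls, -4.56 and -4.57 at day 4, -1.88 and -2.88 at day 7 and 5.61 at day 10, a 255-fold rise (adjusted p = 0.000371). Its relative Anxa8 was below background on the 6 earlier arrays and at 4.57 at day 10, at least 474-fold higher (adjusted p = 0.000187), and Anxa10 stood at -2.82 and -3.27 and 3.97 (adjusted p = 0.00039). For these 3 genes every earlier array was more than 6 log2 units below day 10. Clu, clusterin, the marker of revival stem cells, stood at -1.07 and -0.64 in the controls, 2.08 and 1.48 at day 4, 6.47 and 5.86 at day 7 and 8.49 at day 10 and rose by 2.33 ± 0.41 (adjusted p = 0.00884). Ly6a, which encodes Sca-1, stood at 6.38 and 3.68 at day 7 and 7.12 at day 10; the 2 day 7 arrays differed from each other by more than the day 10 array did from the higher of them, and the test was not passed (adjusted p = 0.22).

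Ligands and receptors of neighbouring growth pathways were mixed. Of 15 EGF family genes 6 rose and 3 fell (median 1.2). Egfr, the receptor, stood at 1.33 and 1.53 in the controls, 1.13 and 1.31 at day 4, 2.21 and 2.01 at day 7 and 5.19 at day 10 (3.08 ± 0.27, adjusted p = 0.000787), with its 3 probes between 1.54 and 3.08 higher. The ligands Btc and Areg rose from -2.17 and -2.22 to 0.25 and from 4.71 and 3.91 to 6.24 (adjusted p = 0.00124 and 0.0252), and the ligand Nrg4 was at least 2.69-fold lower (adjusted p = 0.0232). Over the alternatives the adjusted p was 0.0126 to 0.068 for Areg, above 0.05 in 6 of 17 alternatives, those without either day 4 replicate or day 7 replicate 2 among them, and 0.00922 to 0.0607 for Nrg4, above 0.05 in 2 of 16. Of 30 BMP and TGF-beta genes 7 rose and 4 fell (median -0.12, and 0.06 when scaled to probes detected on all 7 arrays). Tgfbr2, the type II receptor, rose from 3.83 and 3.51 to 6.37 (adjusted p = 0.00113), and Inhba, an activin subunit, was at least 6.98-fold higher (adjusted p = 0.000328). Bmp7 and Smad6, a BMP ligand and an inhibitory SMAD, fell from -0.58 and -0.25 to -4.31 and from 0.93 and 1.00 to -2.56 (adjusted p = 0.000681 and 0.000954).

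Genes of matrix breakdown and coagulation stood among the largest rises. Of 24 extracellular proteolysis genes 17 had a value, 13 rose and 1 fell (median 4.37, or 3.58 with members at background set to their bound, and 2.04 over the 10 on all 3 arrays). Of the 17, 6 were kept through the day 10 array alone, which favours a rise. Over the 10 on all 3 arrays 6 were above the day 7 range and 1 below it. Among all features on all 3 arrays these shares were 7.54% and 11%. Plat, tissue plasminogen activator, stood at -6.00 and -6.69 in the controls, -6.86 and -5.86 at day 4, -2.78 and -4.11 at day 7 and 6.22 at day 10, with 1 day 7 array above background, and rose by 9.66 ± 0.67 (adjusted p = 0.000462). Adamts4, a proteoglycan-cutting protease, was at least 55.9-fold higher (adjusted p = 0.00013). Tfpi, the inhibitor of the tissue factor pathway, was the member that fell, from -1.22 and -1.42 to -3.85 (adjusted p = 0.00231), but its 3 probes lay between -2.53 and 0.85 and so differed in sign.

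Barrier and cytoskeletal genes rose in larger numbers than they fell. Of 24 junction, integrin and laminin genes 13 rose and 2 fell (median 1.16). Col4a1, a basement membrane collagen, was below background on the 6 earlier arrays and at 1.92 at day 10, at least 81.9-fold higher (adjusted p = 0.00013). Cldn4, a sealing claudin, rose from 1.14 and 1.05 to 3.93 (adjusted p = 0.00421), and Cldn15, which forms the sodium channel of the small intestinal junction, fell from 5.68 and 5.97 to 2.71 (adjusted p = 0.000938). Of 19 keratin and squamous genes 11 rose and 2 fell (median 1.09). Krt14, a keratin of basal squamous cells, stood at -3.01 and -3.30 in the controls, -2.94 and -2.94 at day 4, -2.42 and -2.51 at day 7 and 2.40 at day 10, a 29.1-fold rise (adjusted p = 0.00029), and Krt23 went from 3.91 and 3.99 to 6.81 (adjusted p = 0.000781). Among the 2 that fell was Trp63, the squamous master regulator, but its probe was as bright in the controls (3.44 and 3.68), an epithelium not known to express p63, so what it reads is not established here, and 12 of 17 alternatives ended this call.

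Some genes of several stress programmes rose, beside 13.6% of all features. Most unfolded protein, integrated stress and heat shock genes stayed within 1 log2 unit of the day 7 range. Hspa5, Ddit3, Atf4 and Xbp1 differed by 0.23, 0.33, 0.16 and -0.16, and Hsph1, Dnajb1 and Hsp90aa1 by -0.11, -0.46 and 0.25. Of 21 p53 response genes 11 rose and 2 fell (median 1.30). Gdf15, a stress-induced cytokine, stood at -1.40 and -1.35 in the controls, -1.34 and -1.18 at day 4, -1.31 and -2.63 at day 7 and 4.23 at day 10, a 73.5-fold rise (adjusted p = 0.000706). Phlda3, an inhibitor of AKT, stood at -2.47 and -3.67 in the controls, -0.34 and -1.63 at day 4, -1.37 and -2.38 at day 7 and 3.54 at day 10 (5.42 ± 0.74, adjusted p = 0.00348). The 2 probes of Cdkn1a, which encodes the cell cycle inhibitor p21, disagreed: the brighter stood at 4.93 and 4.87 and 4.89 and did not pass (adjusted p = 0.981), and the other was 4.45 log2 units higher at day 10. Sesn1 and the death receptor Fas fell, from 2.70 and 3.29 to -0.71 and from 3.16 and 2.75 to 0.13 (adjusted p = 0.0021 and 0.00126). Of 24 hypoxia and glycolysis genes 9 rose and none fell (2 at an unadjusted p under 0.05) (median 0.65). Hk2 and Hk1, the hexokinases, went from 0.69 and -0.25 to 5.10 and from 1.23 and 1.26 to 4.85 (adjusted p = 0.000715 and 0.000617), and the glucose carrier Slc2a1 from 2.68 and 2.23 to 5.34 (adjusted p = 0.00312). Of the enzymes further down glycolysis, Ldha stood at 7.66 and 8.44 and 7.95 (adjusted p = 0.9) and Eno1 at 7.52 and 7.28 and 7.50 (adjusted p = 0.823), and neither passed.

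Of 22 immediate early genes 9 rose and none fell (0 at an unadjusted p under 0.05), at a median of 1.07. Ier3 stood at -0.44 and -0.11 in the controls, -0.99 and -0.69 at day 4, -0.68 and -0.79 at day 7 and 3.97 at day 10 (4.70 ± 0.29, adjusted p = 0.000364), and Dusp1, a phosphatase that quenches MAP kinases, at 0.44 and 0.76 in the controls, -1.10 and -0.83 at day 4, 0.77 and 0.23 at day 7 and 4.13 at day 10 (3.63 ± 0.34, adjusted p = 0.000945). The FOS-related factor Fosl1 was at least 33.3-fold higher (adjusted p = 0.00197). Of 21 unfolded protein and integrated stress response genes 6 rose and none fell (1 at an unadjusted p under 0.05), at a median of 0.33, among them Chac1, a glutathione-degrading enzyme, from 1.15 and -0.37 to 3.70 (adjusted p = 0.00966). Of 13 heat shock genes 3 rose and none fell (0 at an unadjusted p under 0.05), at a median of 0.21 (-0.02 without day 7 replicate 2): the small heat shock proteins Cryab and Hspb1, and Hspa1a, from -2.31 and -2.25 to 0.15 (adjusted p = 0.00497).

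Inflammatory genes divided into a neutrophil-attracting and acute phase set that was far higher at day 10, and interferon, antigen presentation and lymphocyte sets that were lower. Of 20 antimicrobial and acute phase genes with a value 13 rose and 2 fell (median 3.39, and 2.86 over the 16 on all 3 arrays). S100a9, a calprotectin subunit made by neutrophils and by injured epithelium, stood at -6.09 and -6.53 in the controls, -6.99 and -5.73 at day 4, -1.21 and -3.01 at day 7 and 7.22 at day 10, a 644-fold rise over the day 7 mean (adjusted p = 0.000785). Its partner S100a8 was below background on the 6 earlier arrays and at 5.71 at day 10, at least 1136-fold higher (adjusted p = 0.00013). Saa3, a serum amyloid of acute inflammation, was at least 118-fold higher (adjusted p = 0.00013). Reg3b and Reg3g, bactericidal lectins, were already bright, at 8.07 and 8.62 and 7.80 and 8.19 at day 7, and stood at 8.36 and 8.45 at day 10, within or near the day 7 range (adjusted p = 0.984 and 0.495). The members that fell were Reg4, from 2.46 and 3.06 to -1.97 (adjusted p = 0.000449), and Mptx1, from 1.77 and 1.71 to -1.14 (adjusted p = 0.00219).

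The chemokines showed the division within 1 list. Of 20 with a value 9 rose and 6 fell; the median was 1.30 over all of these and -1.37 over the 11 on all 3 arrays, so the list as a whole has no direction. Cxcl1, Cxcl2 and Cxcl3, which attract neutrophils through CXCR2, were not well above background on any of the 6 earlier arrays. They were thus kept through the day 10 array alone, and their p-values carry that selection. On the day 10 array they stood at 3.43, 1.71 and 3.11, at least 234-fold, 71-fold and 188-fold higher than at day 7 (adjusted p = 0.00013, 0.000284 and 0.00013). Cxcl5, of the same kind, stood at -1.90 and -4.98 at day 7, 1 of these above background, and at 7.41 at day 10 (10.85 ± 1.09, adjusted p = 0.00119). Ccl5, made by cytotoxic lymphocytes, stood at 6.33 and 6.16 in the controls, 6.10 and 5.88 at day 4, 5.86 and 5.97 at day 7 and 2.08 at day 10 and fell 14.2-fold (adjusted p = 0.000462), and Cxcl10, an interferon-induced chemokine, at -1.07 and -0.51 in the controls, -0.51 and 0.19 at day 4, 2.20 and 1.96 at day 7 and -0.11 at day 10 (-2.19 ± 0.40, adjusted p = 0.0107). Ccl25, the small intestinal chemokine that draws lymphocytes, went from 7.15 and 7.13 to 2.38 on its brighter probe (adjusted p = 0.000356), while its other probe differed by 0.13.

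The 200 bases before the start sites of Cxcl1, Cxcl2 and Cxcl3, neighbouring genes on chromosome 5, are shown because these genes had the same pattern. They are RefSeq's on GRCm38.p6, at chr5:90891045-90891244, plus strand, chr5:90903699-90903898, plus strand, and chr5:90785901-90786100, plus strand, 5′ to 3′. Capitals mark GGGAATTTCCC, the longest stretch that the 3 windows share, which holds letters NF-kappaB is known to bind. The reverse complement GGGAAATTCCC was searched too. The stretch began 71, 97 and 73 bases before the start, and 11 of all 32851 windows (0.0335%) held it. Since it was picked for being shared, that share is a description.
Cxcl1: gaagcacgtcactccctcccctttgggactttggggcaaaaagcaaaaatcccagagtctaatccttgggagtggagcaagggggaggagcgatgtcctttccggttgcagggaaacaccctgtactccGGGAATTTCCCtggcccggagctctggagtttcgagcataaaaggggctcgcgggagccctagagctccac
Cxcl2: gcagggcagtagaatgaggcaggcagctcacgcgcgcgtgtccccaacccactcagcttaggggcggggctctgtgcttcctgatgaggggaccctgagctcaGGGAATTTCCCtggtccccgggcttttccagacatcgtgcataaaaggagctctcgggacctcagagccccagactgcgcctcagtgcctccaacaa
Cxcl3: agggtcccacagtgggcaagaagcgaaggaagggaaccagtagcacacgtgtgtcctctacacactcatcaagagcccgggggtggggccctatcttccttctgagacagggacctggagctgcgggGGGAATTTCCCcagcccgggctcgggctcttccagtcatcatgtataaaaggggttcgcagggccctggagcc

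Cytokines of the IL-1 and TNF families followed the neutrophil-attracting set. Of 20 with a value 14 rose and 2 fell (median 2.48, 1.76 with members at background set to their bound, and 1.42 over the 10 on all 3 arrays). Of the 20, 8 were kept through the day 10 array alone, which favours a rise. Over the 10 on all 3 arrays 6 were above the day 7 range and 1 below it. Il1b, interleukin-1 beta, was below background on the 6 earlier arrays and at 0.93 at day 10, at least 41.2-fold higher (adjusted p = 0.00211). Tnf stood at -3.69 and -5.60 at day 7, 1 of these above background, and 1.53 at day 10 (6.17 ± 0.72, adjusted p = 0.00193). Csf1, the growth factor of macrophages, stood at -2.73 and -2.59 in the controls, -3.20 and -2.86 at day 4, -2.33 and -3.11 at day 7 and 3.20 at day 10, a 60.6-fold rise with its 3 probes between 5.53 and 5.98 log2 units (adjusted p = 0.00039). Tnfsf10, the death ligand TRAIL, was above background on all 6 earlier arrays and not at day 10, at least 124-fold lower (adjusted p = 0.000134), and Il18, made by enterocytes, fell from 4.93 and 5.22 to 3.48 (adjusted p = 0.00882, 0.00589 to 0.188 over the alternatives, the highest with normexp). Ptgs2, the inducible cyclooxygenase, exceeded day 7 at least 6.51-fold (adjusted p = 0.000397). In contrast Hpgd, which degrades prostaglandins, fell from 4.33 and 4.72 to 1.17 (adjusted p = 0.00106).

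Some markers of the leukocytes that carry such genes were higher too. Of 15 neutrophil markers on the array all 15 had a value, 11 rose and none fell (1 at an unadjusted p under 0.05). Of these 15, 7 were on all 3 arrays, and their median was 0.24, against 4.57 over all 15 and 2.88 with members at background set to their bound. Of the 7, 3 were above the day 7 range. The other 8 markers were kept through the day 10 array alone, which favours a rise, so the count over all 15 carries that selection. The number well above background was 6 and 6 in the controls, 7 and 7 at day 7, and 15 at day 10. The log2 of the summed level of the whole list was 7.15 and 7.54 in the controls, 7.23 and 7.50 at day 4, 7.00 and 7.70 at day 7 and 8.66 at day 10, where the bright Csf3r probe (6.94 and 7.67 at day 7 and 7.49 at day 10) carried most of the earlier sums. Of the defining granule and surface markers, Ngp and Retnlg were below background on the 6 earlier arrays and at 0.60 and 3.17 at day 10, and Cxcr2 stood at -1.66, whereas Mpo and Elane, of immature neutrophils, stood at -3.29 and -3.12 and -4.24, and at 0.46 and 0.16 and 0.54, and did not pass (adjusted p = 0.0626 and 0.777).

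For macrophages and dendritic cells 11 of 17 markers with a value rose and none fell (1 at an unadjusted p under 0.05), at a median of 1.85. The log2 summed level of the list was 5.43 and 5.47 in the controls, 4.93 and 5.26 at day 4, 5.67 and 5.90 at day 7 and 6.62 at day 10. Csf1r, the receptor for CSF1, stood at 0.42 and 0.47 in the controls, -0.09 and 0.51 at day 4, 0.24 and 0.38 at day 7 and 3.78 at day 10 (3.47 ± 0.32, adjusted p = 0.000966), with its 3 probes between 0.25 and 4.46 higher. C1qa, a complement subunit of tissue macrophages, went from -2.77 and -2.77 to 0.30 (adjusted p = 0.000769), while Ptprc, which encodes the leukocyte antigen CD45, stood at -0.79 and -0.53 and -1.31 and did not pass (adjusted p = 0.129). C1qb, Itgam, Lyz2, Tyrobp and Itgax stayed within 1 log2 unit of the day 7 range too, at differences of 0.30, 0.32, 0.66, 0.67 and 0.81. What part neutrophils, macrophages and dendritic cells had in the levels of cytokines, S100a8, S100a9, Mmp9 and Il1r2 was not tested.

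**Figure D5:**
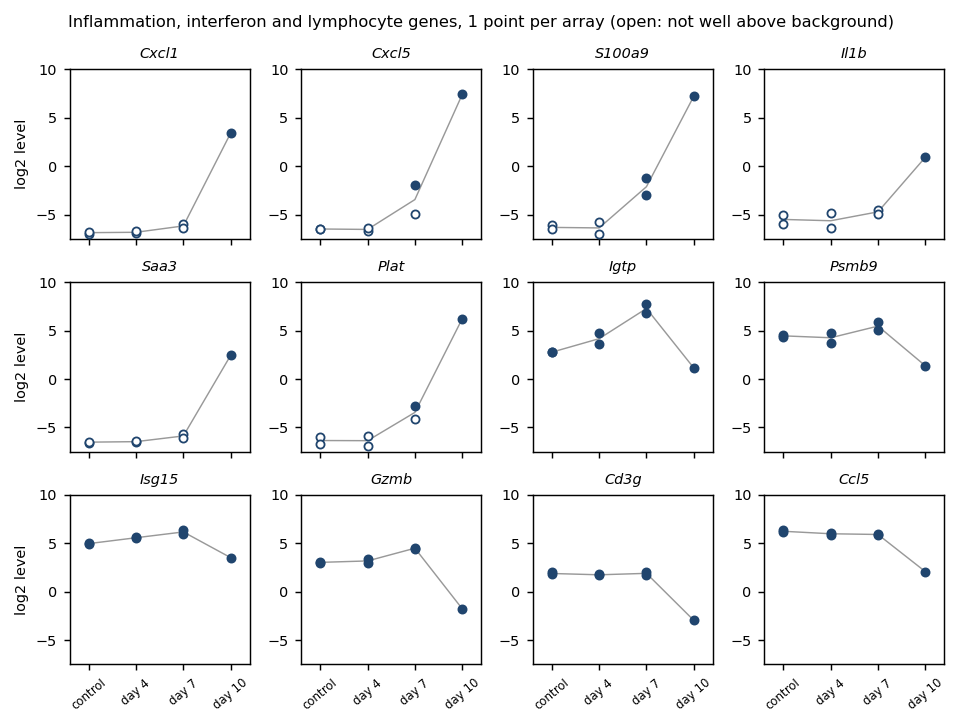
Log2 level (y axis) of 12 inflammatory, interferon and lymphocyte genes in each of the 7 arrays by group (x axis); filled points are well above background, open points are not, and the grey line joins group means. The first 6 genes are highest at day 10, where Cxcl1 reaches 3.43 and Cxcl5 7.41, and the last 6 are lowest there, with Igtp at 1.14 after 7.79 and 6.76 at day 7.

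Interferon-induced genes were lower at day 10 than at day 7, and some were lower than in the controls. Of 28 interferon-stimulated genes, all on all 3 arrays, 20 were below the day 7 range, 18 fell and none rose (0 at an unadjusted p under 0.05), at a median of -1.76. Isg15, a ubiquitin-like protein, stood at 4.93 and 5.01 in the controls, 5.52 and 5.64 at day 4, 6.39 and 5.96 at day 7 and 3.52 at day 10 (-2.65 ± 0.29, adjusted p = 0.00157), with the day 10 array below both controls. Cmpk2, a nucleotide kinase of the same response, went from 2.26 and 2.32 to -1.06 (adjusted p = 0.00097), and Ifit1, which binds foreign RNA, from 1.87 and 2.35 to -0.42 (adjusted p = 0.00304). Among the GTPases that interferon gamma induces, 7 of 15 fell and none rose (0 at an unadjusted p under 0.05), at a median of -2.26. Igtp stood at 2.74 and 2.80 in the controls, 4.73 and 3.59 at day 4, 7.79 and 6.76 at day 7 and 1.14 at day 10, a 70.2-fold fall (adjusted p = 0.000998), and Irgm2 at 1.09 and 1.21 in the controls, 2.56 and 1.86 at day 4, 4.93 and 4.41 at day 7 and -0.17 at day 10, a 28.6-fold fall (adjusted p = 0.000646). Both had climbed from control through day 4 to day 7 before the low day 10 value. For others of this list the 2 day 7 arrays were far apart, as for Tgtp1 at -0.66 and -2.73, and the day 10 level of -3.92 did not pass (adjusted p = 0.2).

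Antigen presentation genes were lower too. Here 15 of 19 were below the day 7 range, 13 fell and none rose (0 at an unadjusted p under 0.05), at a median of -2.22. Psmb9 and Psmb8, subunits of the immunoproteasome, stood at 4.56 and 4.35 in the controls, 4.75 and 3.77 at day 4, 5.91 and 5.01 at day 7 and 1.37 at day 10, and at 4.47 and 4.64 in the controls, 4.74 and 4.28 at day 4, 5.72 and 4.94 at day 7 and 2.04 at day 10. They fell 17.1-fold and 9.77-fold, with the day 10 array below all 6 others (adjusted p = 0.00269 and 0.0022). Nlrc5, the transactivator of MHC class I genes, went from 2.81 and 1.55 to -1.65 (adjusted p = 0.00469), and H2-DMa, which loads peptide on MHC class II, from 3.43 and 1.77 to -1.12 (adjusted p = 0.0276, 0.00566 to 0.0795 over the alternatives, above 0.05 in 2 of 17, that without day 7 replicate 1 among them).

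The 200 bases before Isg15 and Ifit1 are shown as members that fell together and whose promoters are textbook examples of interferon response elements. They are RefSeq's on GRCm38.p6, at chr4:156200819-156201018, minus strand, and chr19:34640689-34640888, plus strand, 5′ to 3′ on the gene's strand. Capitals mark GAAA, any 2 bases and GAAA again, or the reverse complement, TTTC, any 2 bases and TTTC, with overlapping matches joined. There were 3 in Isg15 and 2 in Ifit1, and 2.27% of all windows held at least 1.
Isg15: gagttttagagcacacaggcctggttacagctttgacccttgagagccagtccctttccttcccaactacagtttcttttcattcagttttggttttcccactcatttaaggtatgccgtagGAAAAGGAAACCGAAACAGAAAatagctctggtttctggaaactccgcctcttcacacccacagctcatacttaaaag
Ifit1: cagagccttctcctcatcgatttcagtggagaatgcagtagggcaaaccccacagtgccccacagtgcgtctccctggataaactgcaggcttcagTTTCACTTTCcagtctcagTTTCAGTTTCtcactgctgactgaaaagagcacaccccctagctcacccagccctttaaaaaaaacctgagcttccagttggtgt

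Markers of T cells and intraepithelial lymphocytes, which EDTA releases together with the epithelium, were lower at day 10. All 16 on the array had a value, 12 fell and none rose (0 at an unadjusted p under 0.05), at a median of -3.0. Gzmb, the cytotoxic protease granzyme B, stood at 2.98 and 3.08 in the controls, 3.43 and 2.94 at day 4, 4.56 and 4.43 at day 7 and -1.75 at day 10, a 76.1-fold fall (adjusted p = 0.000227). Gzma stood at 7.39 and 7.17 in the controls, 7.31 and 7.17 at day 4, 7.99 and 7.71 at day 7 and 2.79 at day 10, a 33.2-fold fall (adjusted p = 0.000294). The T cell receptor chain Cd3g stood at 1.99 and 1.78 in the controls, 1.80 and 1.71 at day 4, 1.72 and 2.09 at day 7 and -2.95 at day 10, a 28.8-fold fall (adjusted p = 0.000356). For each of these the day 10 array was lower than all 6 earlier ones by more than 4 log2 units. The log2 summed level of the list was 8.46 and 8.20 in the controls and 8.21 and 8.15 at day 4. It was 8.67 and 8.52 at day 7 and 4.47 at day 10. Ifng, interferon gamma, stood at -1.94 and -3.40 and -3.41 and did not pass (adjusted p = 0.449). What part the lymphocyte level had in the interferon and antigen presentation genes was not tested.

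Other cell types gave smaller shifts. Over all features 13.6% rose and 10.9% fell, and no list here was tested against those shares. Of 18 fibroblast genes on the array 8 had a value, 1 rose, Fn1, and 1 fell, Fbln1, while the list's log2 summed level was 3.15 and 3.68 at day 7 and 2.91 at day 10; Col1a2, which encodes a chain of type I collagen, stood at -3.18 and -2.45 and -3.70 (adjusted p = 0.132). Smooth muscle genes had 2 that rose and 2 that fell among 7, endothelial genes 2 and none (1 at an unadjusted p under 0.05) among 8, and enteric neuron and glia genes 1 and none (1 at an unadjusted p under 0.05) among 6. Their summed levels were 3.35 and 3.05 at day 7 and 2.68 at day 10 for smooth muscle. They were 3.48 and 3.32 and 3.19 for endothelium, and 5.03 and 5.33 and 5.50 for neurons and glia. No B or plasma cell gene passed limma's test among 5 (1 lower and 0 higher at an unadjusted p under 0.05). No mast cell gene passed among 9 (0 lower and 3 higher). The mast cell list's summed level stood at 0.75 and 1.35 in the controls, 3.12 and 3.45 at day 7 and 3.66 at day 10. Erythroid genes had 1 that rose and 1 that fell among 4, and genes of stomach, colon and pancreas 2 and 3 among 10. Circadian clock genes, which vary with the hour of sampling, had 2 that rose and 2 that fell among 16, near the shares over all features. Prostaglandin and phospholipase genes had 1 that rose and 3 that fell among 12.

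The genes farthest beyond the day 7 range, ranked over all symbols, included several outside these lists. Among features on all 3 arrays, the largest gap upward after S100a9 belonged to Mal, a raft protein of apical transport, at -3.08 and -2.05 in the controls, -3.26 and -2.74 at day 4, -1.59 and -1.64 at day 7 and 6.66 at day 10, a 311-fold rise (adjusted p = 0.000328). B3galt5, a glycosyltransferase, stood at -0.89 and -0.74 in the controls, -1.88 and -1.70 at day 4, -1.04 and -1.66 at day 7 and 5.19 at day 10 (6.54 ± 0.33, adjusted p = 0.000256), and Hilpda, a lipid droplet protein induced by low oxygen, at -0.61 and -0.69 in the controls, -0.37 and -0.91 at day 4, -0.36 and -0.73 at day 7 and 5.02 at day 10 (5.57 ± 0.33, adjusted p = 0.000356). In each of these the 6 earlier arrays lay within 2 log2 units of each other and the day 10 array stood apart. Cavin3, Tent5b, Plekhs1, Mucl3 and Adamtsl4 rose by between 5.31 and 6.32 log2 units. Of the features above background at day 10 alone, Plppr1, a phospholipid phosphatase-related membrane protein, was at or below -6.20 on the 6 earlier arrays and at 7.74 at day 10, at least 4638-fold higher (adjusted p = 3.67e-05); it was read by 1 probe. Rab11fip5, an endosomal recycling adaptor, exceeded day 7 at least 310-fold (adjusted p = 0.000521), and Mab21l3 at least 317-fold, although its other probe differed by 4.99 log2 units against 9.77.

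At the lower end stood metabolic genes of the villus. Aoc1, the diamine oxidase that degrades histamine in the gut, stood at 5.66 and 6.65 in the controls, 5.79 and 6.39 at day 4, 5.98 and 6.84 at day 7 and -1.97 at day 10, a 334-fold fall (adjusted p = 0.000414). Slc5a11, an inositol transporter, stood at 6.60 and 6.51 in the controls, 5.90 and 6.39 at day 4, 4.53 and 5.25 at day 7 and -3.47 at day 10, a 328-fold fall (adjusted p = 0.000214). Otc, of the urea cycle, went from 3.25 and 3.35 to -3.82 (adjusted p = 0.00013), and Aadac, a microsomal esterase, from 5.05 and 5.37 to -2.59 (adjusted p = 0.00013). Abat, Rdh7 and 2010106E10Rik fell by 7.08, 7.45 and 6.74 log2 units. Maob, monoamine oxidase B, Slc5a12, a lactate transporter, Ugt2a3, a glucuronosyltransferase, and Slc5a4a were above background on both day 7 arrays and not at day 10, at least 354-fold, 378-fold, 327-fold and 179-fold lower.

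A last group had peaked at day 7. Gsdmc3 and Gsdmc4, gasdermins whose cleaved forms make membrane pores, stood at -1.59 and -0.57 in the controls, 0.91 and -0.13 at day 4, 4.90 and 6.09 at day 7 and -2.59 at day 10 for Gsdmc3, and at 0.11 and -0.29 in the controls, 0.70 and -0.42 at day 4, 4.03 and 5.44 at day 7 and -3.63 at day 10 for Gsdmc4. They fell 272-fold and 329-fold from the day 7 mean (adjusted p = 0.000756 and 0.000656), and the day 10 array was the lowest of the 7 for both. Apol10a and Apol10b, of the apolipoprotein L family, stood at 3.32 and 3.12 in the controls, 5.09 and 3.48 at day 4, 7.13 and 6.74 at day 7 and -0.10 at day 10 for Apol10a, and at -0.05 and -0.62 in the controls, 1.51 and -0.06 at day 4, 3.05 and 3.45 at day 7 and -4.08 at day 10 for Apol10b. They fell 131-fold and 161-fold (adjusted p = 0.000832 and 0.0008), though the other Apol10b probe fell by 2.46 log2 units. Both families hold near-identical members that these probes may share, so the pattern is given for the probes and not for single genes.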

How the data were processed

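Gene expression was measured in epithelial cells of the proximal mouse intestine on 7 single-colour Agilent arrays: 2 controls, 2 at day 4, 2 at day 7 and 1 at day 10. The intensity values are the deposited processed signals of Agilent Feature Extraction, which are background-subtracted, per the file headers. The series value table, deposited by the authors, held the same intensity values within 0.1% for all 55249 probes with a single spot, and was used as an alternative. Control spots and outlier flags were left out, spots of a probe were averaged, and 91 probes missing on an array were dropped. Each array was scaled to its own 75th percentile before log2, and the brightest probe stood for a gene. Of 55681 probes, 27509 had 1 symbol, none had several and 28172 had none, giving 20887 genes through the file's accessions and the RefSeq table of GRCm38.p6.

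The members, the 47 gene lists and the tests were chosen with earlier results of these data known. The text names Mob1a and Mob1b, the 15 highest and 15 lowest genes on all 3 arrays by gap beyond the day 7 range, the 8 largest bounds in each direction among genes detected on 1 side, and up to 4 members of each list per direction (up to 2 of the brightest where a list had none). This rule gave 230 genes, of which the text names a part (a few members are not reported here), and 30 more were chosen with their values known. limma 3.58.1 in R 4.3.3 was fitted to all 7 arrays with 1 mean per group, with 3 residual and 3.29 prior degrees of freedom. It was also run on simulated data in which the day 10 array had the spread of the other groups. That run therefore cannot check whether the real day 10 spread was the same. The p-values measure only the spread between these arrays, and the number of arrays limits the precision. A fold written "at least" sets the brighter group's mean against the mean, per array of the dim group, of the higher of the probe's own value and the lowest signal among probes well above background. Alternatives changed the background correction (normexp, offset 50), the scaling, the dim-probe filter, the probe rule, the range threshold, the arrays in the fit and the replicate block.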

Additional observations from a re-analysis of the deposited data

How the results depend on the processing

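Normexp was run on the median spot signal, a choice made after seeing the data because the scanner output held no mean signal column. It gave 1565 features above the day 7 range and 1731 that rose, against 3810 and 3402. The filters on at least 2 of 7 arrays and on all 3 arrays gave 2299 and 1512 above the range, and 1797 and 1580 that rose. Requiring 2 log2 units beyond the range left 1919 higher and 1091 lower features, and any distance gave 10465 and 9798. With the day 7 and day 10 arrays alone 1750 features fell, against 2721. Without either day 7 replicate, 4806 to 5027 features were above the range and 3463 to 3660 below it. Leaving out 1 control, day 4 or day 7 array at a time gave 2944 to 3255 that rose and 2167 to 2391 that fell. Scaling moved the share of higher features among those beyond the range from 58.5% to 66.7% (75th percentile over probes detected on all 7 arrays) and to 50.05% (median of all probes), and the median of all features from 0.03 to 0.21 and -0.15. Without a filter that median was -0.37, and with normexp it was -0.11 with 44.3% higher. Same-numbered deviations correlated at -0.001, 0.097 and 0.252 for the 3 pairs of groups. With 2 arrays per group these values have no reference, so they cannot settle whether the replicate numbers pair the samples. The fit with the replicate block made 5638 calls, 3228 higher and 2410 lower, of which 5283 were shared with the 6123 made without it. Of 260 named genes 228 were called, 185 of them in every alternative that gave a value, and 43 lost the call in at least 1. The sign changed for Synpo2, at -0.75 without a filter (adjusted p = 0.542, limma), and for Cdkn1a, at 2.22 as the mean of its probes (adjusted p = 0.00182, limma). Of the 23 list medians at least 1 log2 unit from 0, that of the chemokines was the 1 to change sign, to -0.54 with the filter on at least 2 of 7 arrays and -1.37 on all 3 arrays. Of the 24 medians nearer to 0, 14 changed sign under at least 1 alternative, the largest being that of the endothelium (0.75, and -0.23 on all 3 arrays). Probes near background limit the rest: for genes detected on 1 side the size is a bound, and with a single day 10 array no spread at day 10 was measured.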
